A study of Bos taurus with 13 samples.

Results

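The T cell receptor complex and its coreceptors were examined through 10 genes, *CD3D*, *CD3E*, *CD3G*, *CD247*, *LCK*, *ZAP70*, *LAT*, *CD4*, *CD8A* and *CD8B*, taken by name from the 16095 named genes of the count tables. All 10 were present, and all 10 passed the filter on low counts, with at least 992 counts in every cow. The samples were RNA of unsorted blood from dairy cows (Italian Red Pied in the labels, Italian Simmental in the study) of 1 commercial farm, clinically healthy and in lactation, with 7 cows in the high and 6 cows in the low milk cortisol group. No treatment was given, the groups are the tails of a ranking by cortisol in milk, and the age of each cow is not given in the sources used here. Globin RNA was not depleted. Reads on named genes numbered 12198355 to 23709740 per high cow and 11045599 to 28124575 per low cow. The header of each count table names an alignment whose animal number differs from that in the table's name, and the groups are those of the sample labels.

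T cells recognise antigen through a receptor of variable chains, alpha with beta or gamma with delta, which cannot signal alone. They are joined to invariant chains, CD3 gamma, delta and epsilon and the zeta chain encoded by *CD247*, whose tails are phosphorylated by the kinase LCK. The kinase ZAP70 then docks on those tails and phosphorylates the adaptor LAT, on which the downstream signal is built. The coreceptors CD4 and CD8 bind MHC class II and class I molecules and bring LCK to the receptor. The zeta chain, LCK, ZAP70 and LAT are also used by natural killer cells, and the blood of cattle is known for many gamma delta T cells, most of which carry neither CD4 nor CD8.

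Positions are on UMD3.1. The 3 CD3 genes lie together on chromosome 15, *CD3E* from 29441565 to 29452179, *CD3D* from 29456451 to 29460605 on the opposite strand, and *CD3G* from 29462576 to 29469747, with 4271 and 1970 bases between neighbours. *CD8B* (47915426 to 47935161) and *CD8A* (47988169 to 47995400) lie on chromosome 11 with 53007 bases between them, and *ZAP70* (3016325 to 3056118) is on the same chromosome. *CD247* lies on chromosome 3 (1230988 to 1314962), *LCK* on chromosome 2 (122092889 to 122113823), *CD4* on chromosome 5 (103995316 to 104017746) and *LAT* on chromosome 25 (26120769 to 26125637). The exons of the 10 genes overlapped those of 0 other genes in the count tables.

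Levels of different genes were compared as CPM per kilobase (CPM is the count scaled to library size after TMM scaling, here divided by exon length), over all 13 cows. *CD3E*, the epsilon chain that pairs with both other CD3 chains, was the most abundant, with 872 CPM per kilobase ± 188 (SD, n = 13), followed by *CD3D* with 375 ± 67.5 and *CD247* with 345 ± 84.6. *CD4* (234 ± 35.7) and *LCK* (222 ± 33.0) came next, then *CD3G* (169 ± 54.8) and *LAT* (143 ± 23.5). *CD8B* (84.0 ± 15.7), *ZAP70* (71.7 ± 15.7) and *CD8A* (39.4 ± 5.57) were the lowest. Of the 9 neighbouring pairs in this order, *CD4* and *LCK* (log2 difference 0.07, SD 0.20, higher in 9 of 13 cows) and *CD3G* and *LAT* (log2 difference 0.18, SD 0.60, higher in 8 of 13 cows) did not differ beyond their spread, with adjusted p of 0.230 and 0.303 in an exact two-sided paired permutation test. The other 7 pairs had adjusted p of 0.0364 or less over the 9 pairs. *CD3E* was above *CD3D* in all 13 cows, with a log2 difference of 1.21 (SD 0.11, exact p = 0.000244, the smallest this test can give). The order held without any single cow, but in CPM without division by length only 4 of the 10 genes kept their place. Exon lengths ran from 623 bases for *CD3G* to 3943 for *ZAP70*.

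The groups of cows did not differ detectably in any of these genes. In the quasi-likelihood fit of edgeR, 0 of 10 had an adjusted p below 0.05 (each was 0.998) and 0 had an unadjusted p below 0.05, where 231 of 11033 genes tested (2.09%) had one and 0 passed the adjustment (0%). DESeq2 and limma-voom also gave 0 of 10 at an unadjusted p below 0.05, against backgrounds of 2.43% and 1.98%, and at an adjusted p below 0.05 they gave 0 of 10 against 0.00697% and 0%. In whole blood, fewer T cells and less RNA per T cell cannot be told apart. Fold changes ran from -0.20 for *CD4* to 0.20 for *ZAP70* on the log2 scale, 7 of the 10 were lower in the high group, and their median was -0.06, beside 0.01 over all genes tested. Of all genes tested, 46.7% were lower in the high group. High and low cows overlapped for all 10 genes, as they did for all but 0.0272% of the genes tested.

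**Figure D1:**
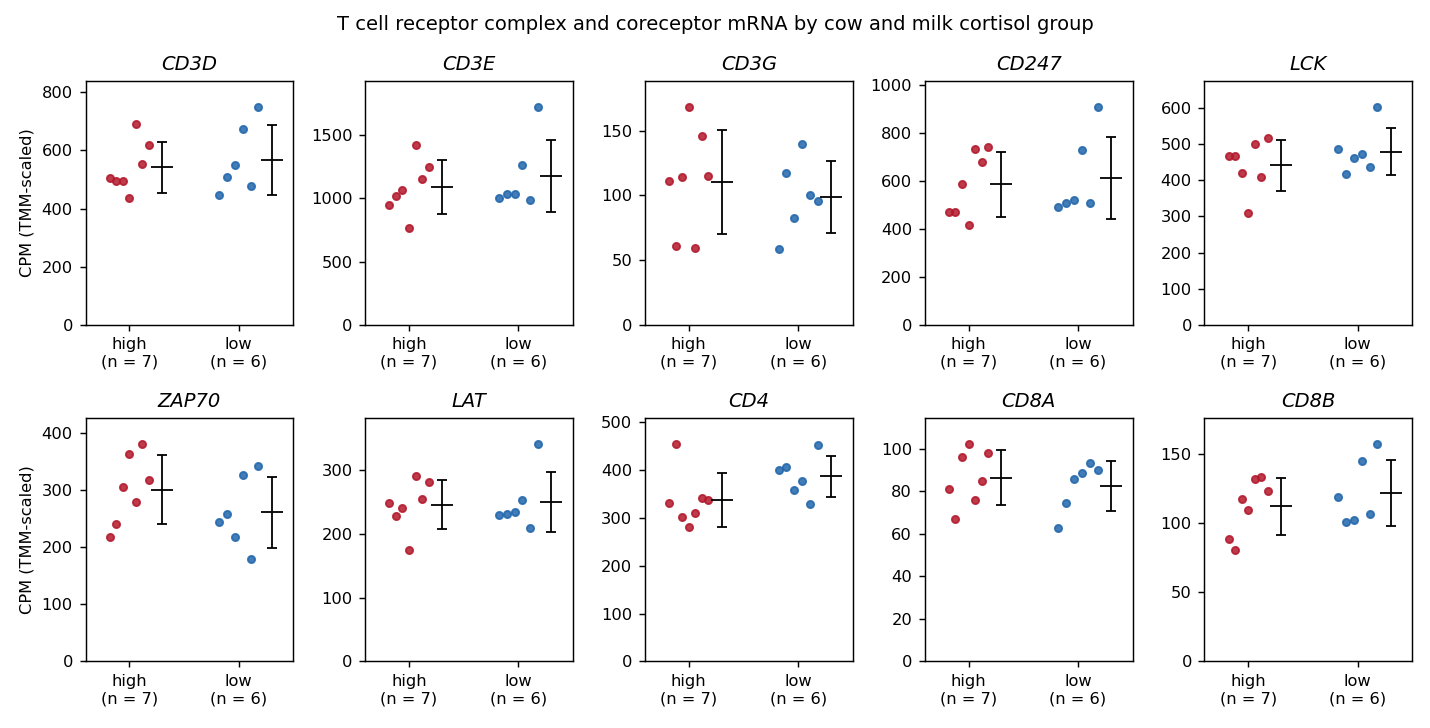
CPM after TMM scaling (y axis, from 0) of the 10 genes in each cow of the high (n = 7) and low (n = 6) milk cortisol group, with the mean and SD as a black bar. The points of the groups overlap in every panel, *CD3G* has the widest relative spread, and replicate 2 of the high group stands above the other high cows for *CD4*.

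Of the signal-transducing chains, *CD3E* ranged over 765 to 1427 CPM among high cows (median 1066) and 991 to 1723 CPM among low cows (median 1038). The lowest of all cows was replicate 4 of the high group and the highest was replicate 13 of the low group, a 2.25-fold range, and the log2 fold change was -0.11 (standard error 0.16, 95% interval -0.45 to 0.22). *CD3D* ranged over 436 to 691 CPM among high cows (median 505) and 445 to 749 CPM among low cows (median 529), with the same cows at both ends. *CD247* ranged over 415 to 739 CPM among high cows (median 588) and 492 to 907 CPM among low cows (median 516), again between replicate 4 and replicate 13. Without replicate 13 the log2 fold changes of *CD3D*, *CD3E* and *CD247* changed sign, to 0.030, 0.030 and 0.085. The log2 fold change of *CD247* also changed sign without replicate 4 of the high group, to 0.0050. The signs of these small values thus depended on single cows.

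*CD3G*, the gamma chain, behaved differently. It ranged over 59.4 to 168 CPM among high cows (median 114) and 58.5 to 139 CPM among low cows (median 97.8). Here replicate 4 of the high group, the lowest cow for the other chains, was the highest of all, and replicate 8 of the low group and replicates 5 and 2 of the high group were the lowest. Its 2.88-fold range was the widest of the 10 genes, and its log2 fold change of 0.16 had a wide error (standard error 0.24, 95% interval -0.35 to 0.67). The SD of its log2 CPM over the cows was 0.50, larger than in 78.5% of the genes tested, while the other 9 genes had SDs between 0.21 and 0.34 beside a median of 0.31 over all genes tested.

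Among the signalling proteins, *LCK* ranged over 308 to 518 CPM among high cows (median 466) and 417 to 603 CPM among low cows (median 467). *LAT* ranged over 175 to 291 CPM among high cows (median 248) and 210 to 341 CPM among low cows (median 233). Both were lowest in replicate 4 of the high group and highest in replicate 13 of the low group, as the CD3 delta and epsilon chains were, and the middle cows of the groups lay side by side. The log2 fold change of *LAT*, -0.02, changed sign without replicate 13 (0.085) and without replicate 4 (0.043). *ZAP70* ranged over 217 to 381 CPM among high cows (median 306) and 180 to 342 CPM among low cows (median 251). Its highest cow was replicate 6 of the high group, 5 of 7 high cows exceeded the median low cow, and the log2 fold change was 0.20 (95% interval -0.14 to 0.55, standard error 0.16, edgeR p before adjustment 0.232 and adjusted p 0.998).

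**Figure D2:**
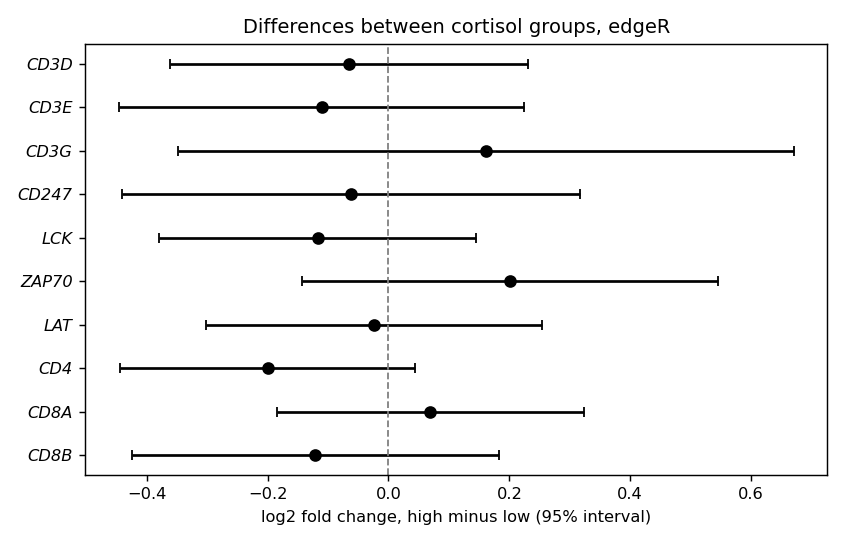
Log2 fold change of each gene, high minus low group (x axis), with its 95% interval from edgeR's quasi-likelihood fit to 7 high and 6 low cows. All 10 intervals contain 0, and that of *CD4*, from -0.44 to 0.04, has the lowest centre and the lowest upper end.

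*CD4*, which marks helper T cells, had the smallest p of the 10. It ranged over 281 to 455 CPM among high cows (median 332) and 328 to 453 CPM among low cows (median 389), and 6 of 7 high cows fell short of the median low cow, as 6 or all 7 did for 9.12% of the genes tested. Its means were 337 CPM ± 56.3 (SD, n = 7) for high and 387 CPM ± 43.0 (SD, n = 6) for low cows. The log2 fold change of -0.20 had a standard error of 0.12, and p was 0.102 before and 0.998 after adjustment in edgeR. Replicate 2 of the high group, with 455 CPM, was the highest of all cows, and the next high cow had 342 CPM. Without it the log2 fold change of *CD4* was -0.28 (standard error 0.10, edgeR p before adjustment 0.0114 and adjusted p 0.913), in a fit where 3.4% of 10979 genes had an unadjusted p below 0.05. With the TMM factor of each library as a covariate the value of *CD4* was -0.11 (standard error 0.10), and with the haemoglobin share it was -0.07 (standard error 0.14). Haemoglobin RNA itself was higher in the high group (*HBB* log2 fold change 2.68, edgeR p before adjustment 0.00156 and adjusted p 0.998). That share and the group therefore cannot be fully told apart.

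CD8 is a dimer, either of 2 alpha chains or of an alpha and a beta chain, and is carried by cytotoxic T cells. Which blood cells gave the *CD8A* and *CD8B* RNA was not tested. *CD8A* ranged over 67.1 to 102 CPM among high cows (median 84.9) and 62.6 to 93.3 CPM among low cows (median 87.2), and the log2 fold change was 0.07 (standard error 0.12). *CD8B* ranged over 80.6 to 134 CPM among high cows (median 117) and 101 to 158 CPM among low cows (median 113), and the log2 fold change was -0.12 (standard error 0.14). The 2 genes were not ordered alike over the cows, with replicate 4 of the high group highest for *CD8A* and replicate 13 of the low group highest for *CD8B*.

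The ratio of *CD4* to CD8 in a cow does not depend on library size. Per kilobase, *CD4* exceeded both CD8 genes in all 13 cows. The *CD4* to *CD8A* ratio ranged over 3.83 to 9.44 among high cows (median 5.62) and 4.90 to 8.91 among low cows (median 6.48), and its mean log2 difference between high and low cows was -0.28 (exact two-sided permutation test over 1716 splits of 7 against 6 cows, p = 0.196, adjusted p 0.368 over 3 ratios). The lowest cow was replicate 4 and the highest replicate 2, both of the high group, so the high group held both ends. The same cows had the highest and the lowest TMM factor of all cows, 1.096 and 0.928. The part of library composition in the ratio was not tested. The *CD4* to *CD8B* ratio ranged over 2.12 to 5.09 among high cows (median 2.32) and 2.34 to 3.62 among low cows (median 2.90), with a mean log2 difference of -0.09 (exact permutation p = 0.702, adjusted p 0.702). The *CD8A* to *CD8B* ratio was below 1 in every cow, at 0.371 to 0.603 among high cows (median 0.530) and 0.340 to 0.564 among low cows (median 0.436), with a mean log2 difference of 0.19 (exact permutation p = 0.245, adjusted p 0.368). None of the 3 differences was larger than the spread between cows. Without replicate 2 of the high group the *CD4* to *CD8A* difference was -0.41 (exact permutation p = 0.0238, adjusted p 0.0714 over 3 ratios).

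**Figure D3:**
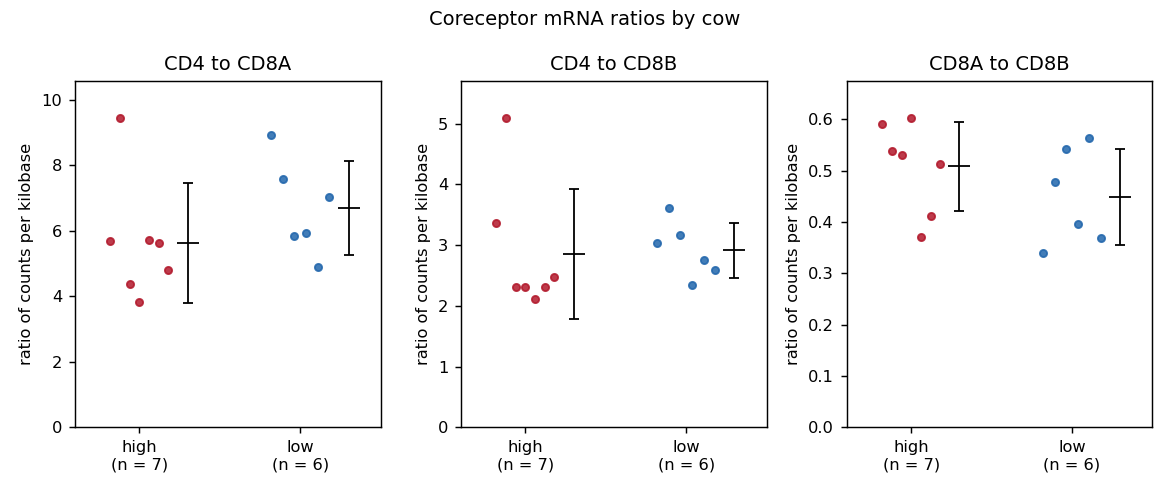
Ratios of counts per kilobase (y axis, from 0) in each cow of the high (n = 7) and low (n = 6) group, with the mean and SD as a black bar. Replicate 2 of the high group is highest in the *CD4* to *CD8A* and *CD4* to *CD8B* panels, at 9.44 and 5.09, and the other high cows lie within or below the range of the low group there.

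Across cows the 10 genes did not vary as 1 block. Over the 45 pairs, the median Pearson correlation of log2 CPM was 0.37 (Spearman 0.36), with 33 pairs positive and 19 above 0.5. Among all pairs of tested genes the median was -0.002 and 13.3% were above 0.5. Of the 45 pairs, 18 had an unadjusted permutation p below 0.05 and 14 an adjusted p below 0.05. Subtracting group means left the median at 0.38. Within the groups the medians were 0.19 over 7 high cows and 0.69 over 6 low cows, with 26 and 42 of 45 pairs positive, and this difference was not tested. All values of a cow come from 1 library, so the correlations share its depth, scaling and mix of blood cells.

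A tight set was made of *CD3D*, *CD3E*, *CD247* and *LAT*. *CD3E* correlated with *CD247* at r = 0.95 (rho = 0.95, permutation p = 1e-05 and 3e-05, where 1e-05 is the smallest that 100000 resamples can give, adjusted p 0.000225 and 0.000675 over 45 pairs), and at r = 0.92 without the 2 cows farthest from the median of *CD3E*. *CD3E* and *LAT* had r = 0.95 (rho = 0.86) and *CD3D* and *CD3E* r = 0.93 (rho = 0.91), and the lowest of the 6 pairs was *CD3D* with *LAT* at r = 0.87 (rho = 0.92). The ratio of *CD3E* to *CD3D* per kilobase stayed between 2.00 and 2.62 over the 13 cows. *LCK* was closest to *LAT* (r = 0.87, rho = 0.62, permutation p = 0.00068 and 0.0283, adjusted p 0.00382 and 0.106), and its r fell to 0.53 without replicate 4 of the high group and replicate 13 of the low group, so this relation rests partly on those cows.

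*CD3G* stood outside the set although its gene is the neighbour of *CD3D*. Its correlation was -0.05 with *CD3D* (rho = 0.00, permutation p = 0.870 and 1.00, adjusted p 0.932 and 1.00) and -0.23 with *CD3E* (rho = -0.07, permutation p = 0.453 and 0.820, adjusted p 0.583 and 0.962). Within the high and the low group these correlations had opposite signs, -0.49 and 0.52 with *CD3D* and -0.54 and 0.27 with *CD3E*, a difference that was not tested. Without replicate 5 of the high and replicate 13 of the low group, the 2 cows farthest from the median of *CD3D* and of *CD3E*, r was 0.29 with *CD3D* and -0.016 with *CD3E*. The ratio of *CD3G* to *CD3E* per kilobase ran from 0.0864 in replicate 5 to 0.456 in replicate 4, both of the high group, a 5.28-fold range beside 1.31-fold for *CD3E* to *CD3D*. The member most like *CD3G* was *CD8A* (r = 0.74, rho = 0.55, permutation p = 0.00402 and 0.0526, adjusted p 0.0181 and 0.131, and r = 0.61 without the 2 cows farthest from the median of *CD3G*).

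Each member was set against 4 measures of the library, the TMM factor, the depth, the share of counts on unnamed genes and the haemoglobin share, which gave 40 correlations, looked at after the data were seen. Of these, 1 had an adjusted p below 0.05 over the 40 by r and by rho, that of *CD3G* with the TMM factor. The share of all genes tested that follow the TMM factor as closely is not given here, so this relation cannot be called particular to *CD3G*. This factor is the number by which edgeR rescales each library so that most genes agree between libraries and which departs from 1 with the composition of the library. The factor was 0.928 to 1.096 among high cows and 0.929 to 1.03 among low cows, highest in replicate 4 and lowest in replicate 2 of the high group. Its correlation with *CD3G* was r = 0.89 (rho = 0.90, permutation p = 0.00012 and 9e-05, adjusted p 0.0048 and 0.0036 over 40, and r = 0.82 without replicates 2 and 4 of the high group). It was r = 0.71 with *CD8A* (rho = 0.60, permutation p = 0.00612 and 0.0339, adjusted p 0.122 and 0.452) and r = -0.66 with *CD4* (rho = -0.52, permutation p = 0.0157 and 0.0740, adjusted p 0.209 and 0.493), so neither passed the adjustment. *CD3D*, *CD3E*, *CD247* and *LAT* had r between -0.28 and 0.00 with the factor. With the factor regressed out, *CD3G* and *CD8A* had r = 0.34, *CD3G* and *CD3E* r = 0.03 and *CD3E* and *CD247* r = 0.99. The 5 genes most like *CD3G*, looked up after its values were seen, were *RWDD1*, *CRLS1*, *ERLEC1*, *SRP72* and *SMC4* (r from 0.94 to 0.96 over 13 cows).

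*CD4* and *CD8A* varied in opposite directions, with r = -0.58 (rho = -0.58, permutation p = 0.0366 and 0.0400, adjusted p 0.0969 and 0.128), -0.68 without the 2 cows farthest from the median of *CD4* and -0.22 with the TMM factor regressed out. Of the transcription factors of T cell lineages, 3 were set against *CD4*, *CD8A* and *CD8B*, giving 9 relations. *ZBTB7B*, which directs cells to the *CD4* lineage, had r = 0.68 with *CD4* (rho = 0.61, permutation p = 0.00956 and 0.0304, adjusted p 0.043 and 0.137 over 9, r = 0.59 without the 2 cows farthest from its median). *ZBTB7B* had r = -0.73 with *CD8A* (rho = -0.69, permutation p = 0.00449 and 0.0105, adjusted p 0.0404 and 0.0949, r = -0.60 without those cows). Both relations thus passed the adjustment by r and not by rho. *CD4* and *CD8A* themselves had r = -0.66 and 0.71 with the TMM factor. The *ZBTB7B* relations were not tested with this factor regressed out or set beside those of all genes. The other 7 had adjusted p of 0.28 or more, among them *ZBTB7B* with *CD8B* (r = -0.04, rho = -0.02), *RUNX3*, which acts in the CD8 lineage, with *CD8A* (r = -0.20, rho = -0.09), and *FOXP3*, of regulatory T cells, with *CD4* (r = 0.49, rho = 0.42). *CD8A* and *CD8B* themselves had r = 0.32 (rho = 0.29, permutation p = 0.281 and 0.345, adjusted p 0.452 and 0.555).

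**Figure D4:**
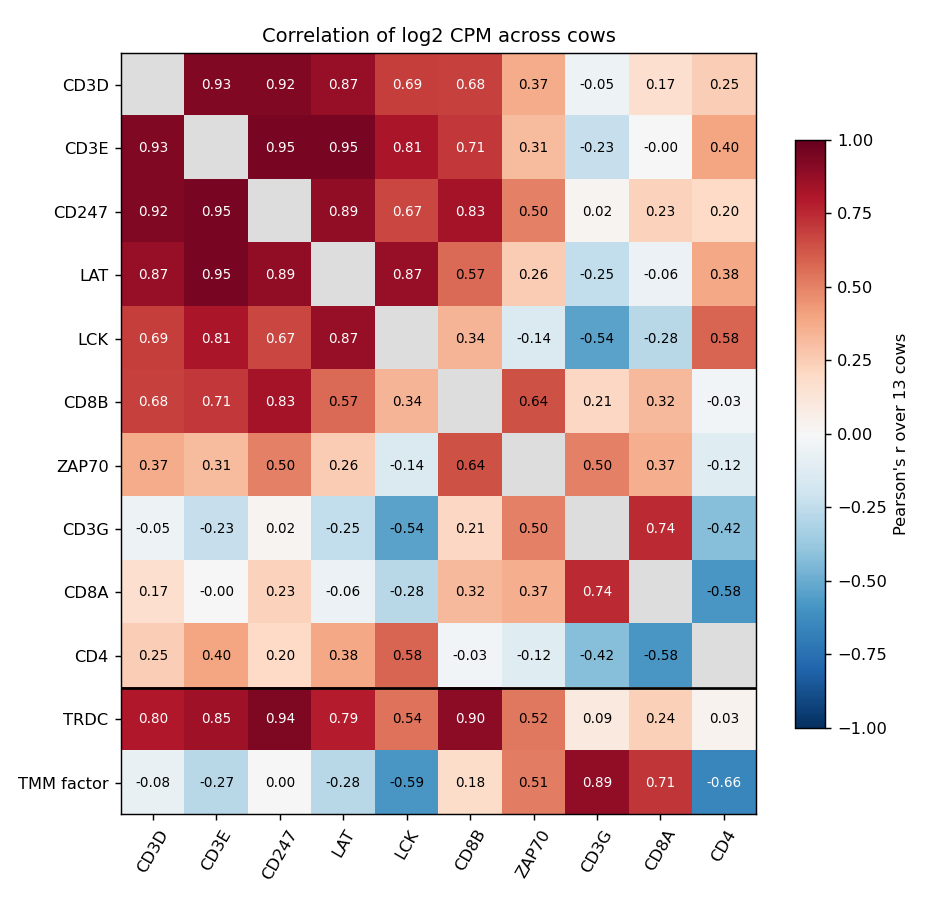
Pearson's r of log2 CPM over 13 cows between the 10 genes (columns and upper rows), and below the line with *TRDC* and with the TMM factor of the library; the colour scale runs from -1 to 1 and grey cells are a gene with itself. *CD3D*, *CD3E*, *CD247* and *LAT* form the dark block at the upper left, while *CD3G*, *CD8A* and *CD4* follow the TMM factor most closely, at 0.89, 0.71 and -0.66.

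The genes most like the 10 members, by mean Pearson r with them over 13 cows among 11023 other tested genes, were *SYTL3*, of vesicle transport (0.59), *TRDC* (0.57), *ADAMTS10*, a secreted metalloprotease (0.57), *ADGRL1*, an adhesion receptor (0.56), and *ABCA2*, a lipid transporter (0.55). Those least like them were *SLC25A27*, a mitochondrial carrier (-0.55), *PLCB1*, a phospholipase (-0.53), and *MAP3K5*, a stress kinase (-0.52). *TRDC* encodes the constant part of the T cell receptor delta chain and was the only 1 of 10 receptor constant genes looked for that the count tables name, so the alpha, beta and gamma constant genes were not analysed here. It lies on chromosome 10 from 22195667 to 22211636.

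*TRDC* lay between *CD3E* and *CD3D* in level, with 579 CPM per kilobase ± 290 (SD, n = 13). It ranged over 232 to 810 CPM among high cows (median 571) and 296 to 1050 CPM among low cows (median 393), a 4.52-fold range between replicate 2 of the high and replicate 13 of the low group. The groups overlapped widely, and the log2 fold change was -0.10 (standard error 0.35, edgeR p before adjustment 0.774 and adjusted p 0.998).

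Because *TRDC* was picked out by its correlation with the members, its correlations with each of them are a description over 13 cows and were given no p. *CD247* had r = 0.94 with *TRDC* (rho = 0.83), *CD8B* r = 0.90 (rho = 0.91), *CD3E* r = 0.85 (rho = 0.78), *CD3D* r = 0.80 (rho = 0.70) and *LAT* r = 0.79 (rho = 0.80). Without replicate 6 of the high and replicate 13 of the low group, these 5 genes kept r of 0.71 or more, and *CD247* had 0.92. *LCK* (r = 0.54, rho = 0.43) and *ZAP70* (r = 0.52, rho = 0.52) followed *TRDC* more loosely. *CD8A* (r = 0.24, rho = 0.18), *CD3G* (r = 0.09, rho = 0.05) and *CD4* (r = 0.03, rho = -0.02) had the lowest values. Within the high and the low group, r with *TRDC* was 0.92 and 0.96 for *CD247* and 0.85 and 0.99 for *CD8B*. Among all genes, looked up after these values were seen, *TRGV11*, a variable gene of the gamma chain, had r = 0.94 with *TRDC*. The ratio of *TRDC* to *CD4* per kilobase ranged over 0.869 to 4.21, lowest in replicate 2 and highest in replicate 5 of the high group, while the low cows lay inside that range.

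**Figure D5:**
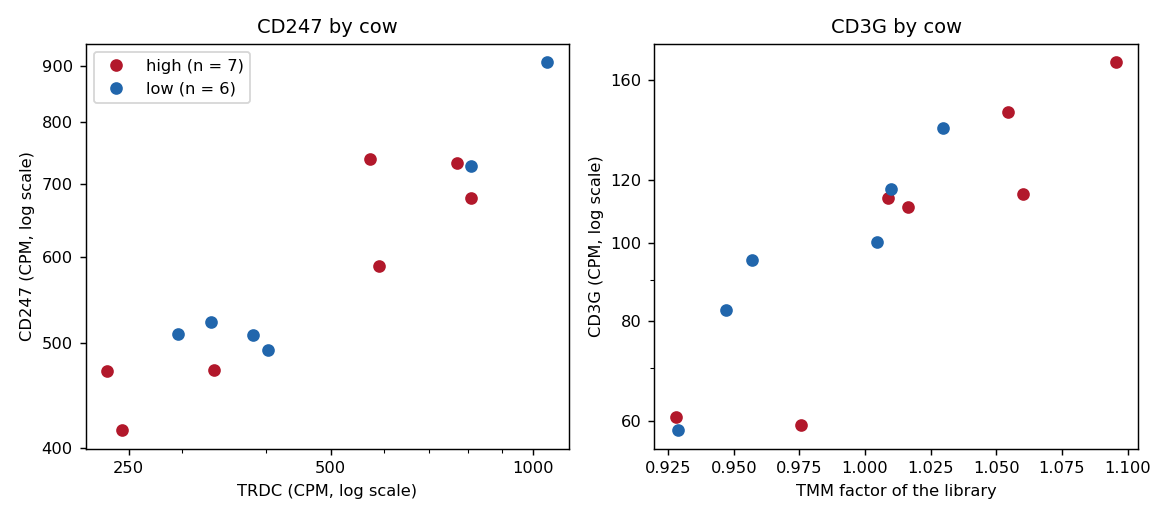
Left, *CD247* against *TRDC*, both in CPM on log axes. Right, *CD3G* in CPM on a log axis against the TMM factor of the library. Each point is 1 cow of the high (red, n = 7) or low (blue, n = 6) group, and both groups lie along the same trend in each panel, with r = 0.94 on the left and 0.89 on the right for log2 CPM.

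The other genes of T cell receptor signalling were read from a list of 48 kinases, phosphatases, adaptors and effectors, all of which were tested. In the edgeR fit, 25 were higher and 23 lower in the high group, 1 had an unadjusted p below 0.05 (2.09% over all genes) and 0 passed the adjustment, with a median log2 fold change of 0.01, the same as over all genes. The 1 gene was *CBLB*, a ubiquitin ligase that restrains T cell activation, whose log2 fold change was 0.53 (standard error 0.23, edgeR p before adjustment 0.0350 and adjusted p 0.998). The next by p were *FYB*, an adaptor (-0.23, standard error 0.12), *NFATC2*, a transcription factor activated by calcium (0.35, standard error 0.20), *CD2*, an adhesion receptor (-0.19, standard error 0.11), and *MALT1*, which links the receptor to NF-kappaB (0.26, standard error 0.18). Of 15 T lineage transcription factors, 9 were higher and 6 lower, and 0 had an unadjusted p below 0.05 by edgeR's test. The most abundant in CPM of these were *TCF7*, *LEF1* and *ZBTB7B*. Of the gamma delta list, *TRDC* and *SOX13* were in the tables, with log2 fold changes of -0.10 and 0.20.

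Markers of other blood cells were in the tables, with counts in every cow except for *AHSP* (erythroid) and *PRG3* (eosinophil). None passed the adjustment (0 in every list, edgeR), and the counts that follow are at an unadjusted p below 0.05, which 2.09% of all genes tested had. Of all genes tested, 46.7% were lower in the high group. The genes of a list come from the same libraries, so their directions are not independent. Of 7 neutrophil genes tested (among them *CSF3R* and *S100A9*), 5 were lower in the high group, and *CSF3R* (log2 fold change -0.45) and *S100A9* (-0.44) had an unadjusted p below 0.05 in edgeR's test, with summed CPM of 4823 to 9642 in high and 7441 to 10298 in low cows. Of 8 monocyte genes (led by *LYZ*, *CD68* and *CSF1R*), 1 had such a p, *CD68*, lower in the high group (summed CPM of 3284 to 8047 in high and 2999 to 7807 in low cows). All 10 natural killer and cytotoxic genes (led by *CTSW*, *PRF1* and *GZMB*) were higher and 0 had such a p (421 to 680 in high and 409 to 691 in low cows). Of 7 B cell genes (led by *CD79A*, *CD22* and *CD79B*) 0 did (1732 to 3659 in high and 1823 to 3279 in low cows), and of 2 eosinophil genes, *CCR3* and *IL5RA*, 0 did (summed CPM up to 349 in high and 227 in low cows, with *PRG3*). Of 5 platelet genes (led by *TUBB1*, *ITGA2B* and *PPBP*) 1, *GP1BB*, was lower with such a p (213 to 474 in high and 239 to 547 in low cows), and of 6 erythroid genes (led by *HBB*, *ALAS2* and *HBG*) 4 were higher with such a p (382 to 8002 in high and 141 to 579 in low cows). With the neutrophil score as a covariate, 0 of the 10 members had an unadjusted p below 0.05, and with the haemoglobin share 0 did, but the log2 fold changes shifted in both directions. With the neutrophil score, those of *CD3D* (-0.19), *CD3E* (-0.25), *CD247* (-0.23), *LCK* (-0.23, standard error 0.12), *LAT* (-0.16) and *CD8B* (-0.19) were over 1.5 times as large as without it. With the haemoglobin share this held for *CD3D* (-0.17), *CD3E* (-0.21), *CD247* (-0.27), *LAT* (-0.068) and *CD8B* (-0.32, standard error 0.19), while *CD3G* (0.027), *ZAP70* (0.070) and *CD4* (-0.074) came closer to 0.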

How the data were processed

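Blood RNA of 13 cows was measured by RNA sequencing. The authors deposited counts, whole reads per gene name without normalization. Per the file headers they used featureCounts 1.4.6-p3 on exons with Ensembl release 88 gene models of UMD3.1, with no strand option, while the study's methods and processing notes name STAR 2.7.3, Subread 1.6.5 and ARS-UCD1.2. Genes without a name share 1 entry, 13.9% to 16.7% of counts, which was left out. A gene at 0 could still stand at up to 0.107 to 0.272 CPM (3 counts), counting error only. No library pair held identical counts.

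TMM scaling then gave CPM and, with a prior count of 2, log2 CPM. Groups were compared with edgeR 4.0.16 in R 4.3.3 (robust quasi-likelihood fit, filterByExpr with minimum count 10 and minimum total 15, Benjamini-Hochberg adjustment over 11033 genes). Standard errors are log2 fold changes divided by the square root of F. Alternatives were DESeq2 1.42.0, limma-voom 3.58.1, RLE and upper-quartile factors, other filters (a total of at least 1, or 10 counts in every cow), a fit that is not robust, haemoglobin genes left out, haemoglobin and neutrophil covariates, prior counts of 0 and 0.5, and each cow left out. Covariates of the TMM factor and of 5 other T cell genes, and the correlations with *TRDC*, the 4 library measures (40 in all) and the lineage factors (9), were added after the data were seen. Ratios used all 1716 splits, levels all 8192 sign flips, correlations 100000 resamples, all two-sided. The members and gene lists were chosen with earlier results of these data known. Named are the members, the 5 genes most and 3 least like them, the 5 signalling genes with the smallest p and the 3 most abundant of each marker list, except 1 gene that is not reported here. Each cow gave 1 library, and p-values measure the spread between cows. Simulated counts with known changes served to check the tests. The methylation data were not analysed here.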

Additional observations from a re-analysis of the deposited data

Results flagged for a closer look

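Within each group, the highest and the lowest cow were set against the nearest of the others for 13 measures, the log2 CPM of the 10 genes and the 3 log2 ratios. There were 52 such comparisons. By Dixon's criterion at the 95% level 1 stood apart, and chance alone gives about 1.3. *CD4* in replicate 2 of the high group, with a log2 CPM of 8.83, was the highest of its group, and the next high cow had 8.42, a gap of 0.592 of the range of the group against a limit of 0.568. The same cow had the lowest *TRDC* and the lowest TMM factor of all 13 cows, at 232 CPM and 0.928, and their part in its *CD4* value was not tested.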

How the results depend on the processing

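At an unadjusted p below 0.05, the count of members was 0 in every alternative that kept all cows and 0 to 1 with 1 cow left out, the 1 being *CD4* without replicate 2 of the high group. The *CD4* to *CD8A* difference ran from -0.41 to -0.19 on the log2 scale with 1 cow left out. The number of the 48 signalling genes at an unadjusted p below 0.05 was 1, and it became 0 with the haemoglobin covariate, 0 with limma-voom, 4 with the neutrophil covariate and 0 to 2 with 1 cow left out, at 2 when high replicate 1, high replicate 6 or low replicate 12 was dropped and 0 when low replicate 10 was. Without division by length, 4 of 10 genes kept their place in the order of levels.

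Signs changed for small values. *CD8A* became -0.036 with the haemoglobin covariate. With the TMM factor as a covariate, *CD3G* became -0.26 (unadjusted p 0.0503, edgeR), *CD8A* -0.065 and *LAT* 0.030. The same covariate brought *CD3E* (-0.057), *LCK* (-0.027), *ZAP70* (0.070) and *CD4* (-0.11) closer to 0 and moved *CD8B* away from it (-0.19). With 1 cow left out, log2 fold changes ran from -0.13 to 0.030 for *CD3D*, from -0.19 to 0.030 for *CD3E*, from -0.13 to 0.085 for *CD247* and from -0.070 to 0.085 for *LAT*. The causes were not tested. No paired analysis was possible because the groups are different cows, taken from the tails of a ranking by cortisol in milk. Each gene had at least 992 counts in every cow.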
